A study of Mus musculus with 12 samples.

Results

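The cluster of miR-221 and miR-222 was followed through its 2 microRNAs on the array, mmu-miR-221 and mmu-miR-222, of 650 miRNAs measured. They were chosen by name, as a pair known to be cut from a shared precursor transcript. Earlier results of these data were known when they were chosen. The arrays came from mouse embryonic fibroblasts of a C57BL/6 background that either lacked ATF6b (knockout, KO) or carried it (wild type, WT). Tunicamycin was given at 2 ug/mL, and the question posed by the study's design text was which miRNAs respond to 12 h of it in a way that depends on ATF6b. The 6 groups of 2 arrays were untreated KO cells, KO cells after 12 h and after 24 h of tunicamycin, untreated WT cells, and WT cells after 12 h and after 24 h. How many embryos or lines stand behind each genotype is not stated in the labels. The 2 arrays of a group are described as independent experiments. Because ATF6b is not on a miRNA array, the genotype labels were not checked.

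MicroRNAs are short RNAs that pair, mainly through a seed near the 5′ end, with sites in messenger RNAs and lower their output. miR-221 and miR-222 are known for repressing the cell cycle inhibitors p27 (Cdkn1b) and p57 (Cdkn1c), and so for favouring proliferation, and in human liver cancer cells they have been reported to fall under endoplasmic reticulum stress. Tunicamycin blocks N-linked glycosylation and so causes that stress, and ATF6b is a transcription factor held in the membrane of the endoplasmic reticulum and released by proteolysis when it occurs.

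The mature sequences are shown because they show what the pair has in common and where it differs. Both lie on the minus strand of the X chromosome (RefSeq, GRCm38.p6), miR-221 at chrX:19146307-19146329 and miR-222 at chrX:19146901-19146923. The array names carry no arm. For these 2 miRNAs the 3′ arm is shown from older naming, and it was not checked against probe sequences. Capitals mark the seed, bases 2 to 8.
mmu-miR-221-3p: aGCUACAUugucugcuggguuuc
mmu-miR-222-3p: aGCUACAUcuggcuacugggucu
Each has 23 bases. The first 8 are identical, and 11 of the 23 positions match when the 2 are set side by side without gaps, so the difference lies in the body and the 3′ end. Of RefSeq's mature mouse miRNAs, 3 carry this seed, and the other one, miR-1928, is not on this array. The hairpins are shown for their arrangement, with the 3′ arm in capitals. Mir221 lies at chrX:19146294-19146388 and Mir222 at chrX:19146893-19146971.
Mir221 hairpin: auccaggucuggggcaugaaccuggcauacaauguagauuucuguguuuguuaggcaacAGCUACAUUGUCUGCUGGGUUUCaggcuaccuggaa
Mir222 hairpin: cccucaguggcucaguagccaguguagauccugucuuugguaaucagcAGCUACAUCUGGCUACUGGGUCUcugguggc
The hairpins are 95 and 79 bases long and lie 504 bases apart with 0 annotated genes between them. On the minus strand Mir222 comes first in the direction of transcription.

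Signals are given as a percentage of each array's 75th percentile, taken over the 93 miRNAs detected on all 12 arrays, and differences are on the log2 scale. Between 114 and 191 miRNAs were detected per array. The 75th percentile was 208 to 257 intensity units on 3 arrays of replicate 2 (KO at 12 h, KO at 24 h and WT at 24 h), against 412 to 623 on the other arrays, so dim miRNAs were read less well there. Of 9 fibroblast markers 8 to 9 were detected on each KO array and 6 to 8 on each WT array. Of 6 epithelial markers, 3 to 4 were detected on the 4 treated KO arrays (miR-141, miR-200b and miR-200c on all 4, miR-205 and miR-429 on none), with a summed signal of 2.54 to 3.72 times the 75th percentile. On the other 8 arrays 0 of the 6 were detected and the sum was at most 0.0188 times it. Endothelial, blood, neural and liver markers were detected on 0 arrays, and of 4 muscle markers only miR-206 was, on 8. The untreated arrays share a slide, the treated arrays share another, and KO and WT arrays lie in different rows of each, so slide and treatment, and row and genotype, cannot be told apart.

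miR-221 was detected on all 12 arrays, and its signal lay below that of WT on both KO arrays of each condition. In untreated KO cells its signal was 30.9% and 32.0% of the 75th percentile, against 77.9% and 74.99% in untreated WT cells. After 12 h of tunicamycin it was 47.9% and 44.7% in KO cells, against 83.4% and 61.0% in WT cells. After 24 h it was 38.8% and 28.1% in KO cells, against 52.2% and 42.5% in WT cells. The KO and WT arrays did not overlap in any of the 3 conditions, and the gap was widest before treatment. The share of tested miRNAs whose arrays also separate in all 3 conditions is not given here. RNA came from whole cultures, in which fewer cells with a miRNA and less of it per cell cannot be told apart.

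**Figure D1:**
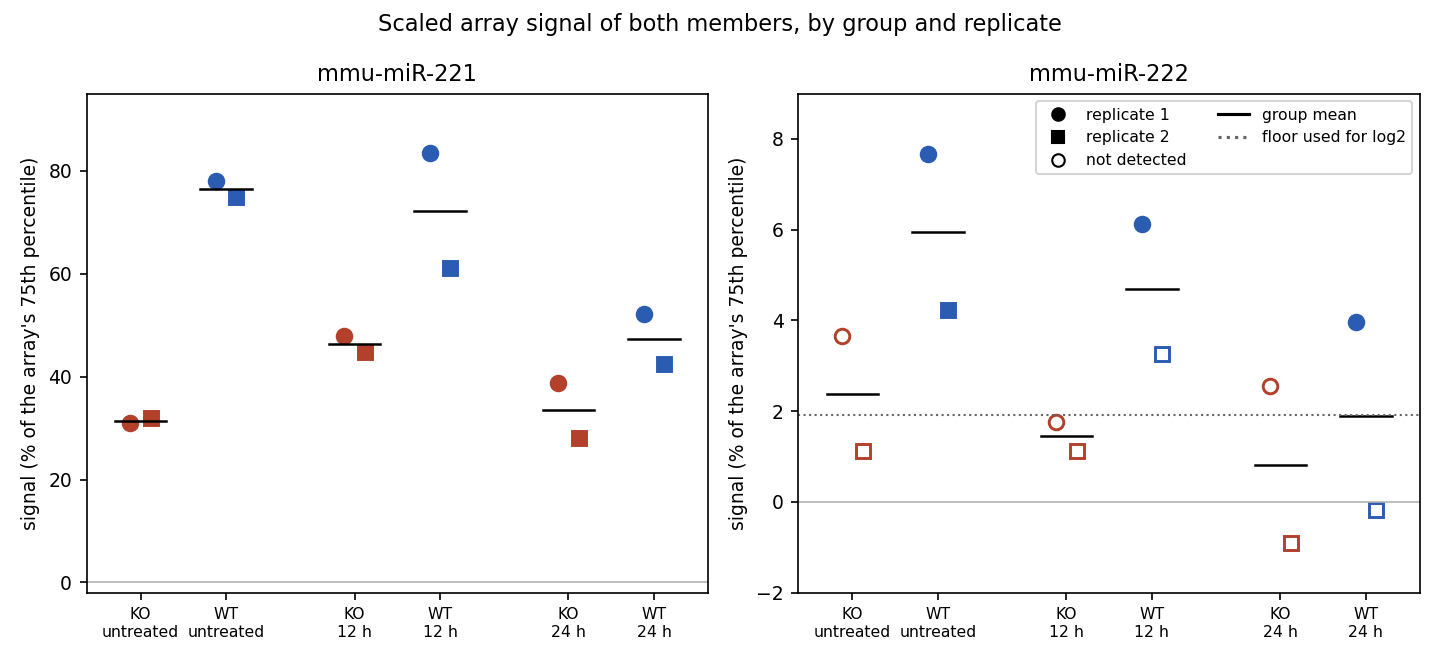
Signal of mmu-miR-221 (left) and mmu-miR-222 (right) on each of the 12 arrays, in percent of that array's 75th percentile, with KO (red) left of WT (blue) in each condition. Circles are replicate 1 and squares replicate 2, open symbols mark arrays on which the miRNA was not detected, black lines are means of 2 arrays, and the dotted line is the floor of 1.91%. miR-221 was lower in KO than in WT arrays in each condition, and miR-222 lay near the floor on most arrays.

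In untreated cells the mean log2 level of miR-221 was -1.67 ± 0.037 in KO and -0.39 ± 0.039 in WT (SD, n = 2 each). This was a 2.43-fold lower level in KO, a log2 difference of -1.28 ± 0.21 (SE), with limma's adjusted p = 0.00779, and the interval of the KO to WT ratio ran from 0.295 to 0.574 (95%). Of the 176 miRNAs tested, 9.66% were called lower in untreated KO cells and 1.70% higher, where called means an adjusted p under 0.05. Within the 2 scan runs, each of which holds 1 KO and 1 WT array, the difference was -1.33 and -1.23. The direction held under every alternative run, but the call did not under 4 of 11: with the 75th percentile over all miRNAs the limma adjusted p was 0.589, with quantile normalization 0.0640, with the scanner software's own total signal 0.216 and with the deposited unscaled values 0.993. Without replicate 1 of untreated WT the adjusted p was 0.0595.

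At 12 h the miR-221 level was 1.54-fold lower in KO cells (mean log2 -1.11 ± 0.071, against -0.49 ± 0.32 in WT, SD, n = 2 each). The log2 difference was -0.62 ± 0.21 (limma adjusted p = 0.0456), in a comparison where 8.52% of tested miRNAs were called lower in KO, 29.5% were called higher, and the median over all 176 was 0.23. Within runs the difference was -0.80 and -0.45. This call stands close to the threshold: it was kept in 5 of 11 alternatives, and when arrays were left out in turn it was kept without either KO array at 24 h or without replicate 2 of WT at 12 h. Leaving out any of the other 9 arrays ended it (limma adjusted p = 0.0526 to 0.223), and without replicate 1 of WT at 12 h the difference was -0.40. Epithelial markers were detected in the same KO cultures (above), and their part in the difference was not tested.

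At 24 h the miR-221 level was 1.42-fold lower in KO cells, with a mean log2 of -1.60 ± 0.33 in KO and -1.09 ± 0.21 in WT (SD, n = 2 each). The log2 difference of -0.51 ± 0.21 did not pass the test (limma adjusted p = 0.100), where 7.39% of tested miRNAs were called lower in KO and 27.3% higher, with a median of 0.25. Within runs it was -0.43 and -0.59. With the replicate number as a block within each slide the adjusted p was 0.0177, and without replicate 1 of KO at 24 h the difference was -0.74 (0.0449), so the call turns on the block and on that array. Without replicate 2 of KO at 24 h it was -0.28.

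Fitted across the 3 conditions together, miR-221 was 1.75-fold lower in KO cells (log2 difference -0.81 ± 0.16, limma adjusted p = 0.00441), and 14.2% of tested miRNAs were called lower in that comparison. An exact two-sided permutation of genotype within condition gave p = 0.00926, the smallest that its 216 arrangements allow. KO was lower than WT in 6 of 6 same-run pairs, and the share of tested miRNAs with that pattern is not given here. Permuting within condition and run as well gave an exact p of 0.03125, again the smallest possible. Both exact tests measure the spread between arrays. They take no account of the spread between embryos or lines, whose number is not stated, or of the slide row. The call held with each of the 12 arrays left out and in 10 of 11 alternatives, and was lost with the deposited unscaled values (-1.12, adjusted p = 0.276).

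Both probes of miR-221 showed the genotype difference. Each of these probes, A_54_P2640 and A_54_P3830, is printed on 10 spots, and the spread between spots of an array was 3.38% to 15.5% of the mean for the first and 1.90% to 16.7% for the second. Fitted apart, the log2 difference of untreated KO from untreated WT cells was -1.29 ± 0.21 (limma adjusted p = 0.0159) for A_54_P2640 and -1.27 ± 0.20 (0.0120) for A_54_P3830. Over all conditions it was -0.81 (0.00840) and -0.80 (0.00671). At 12 h neither probe alone passed the test, at -0.70 (0.0520) and -0.58 (0.0746).

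**Figure D2:**
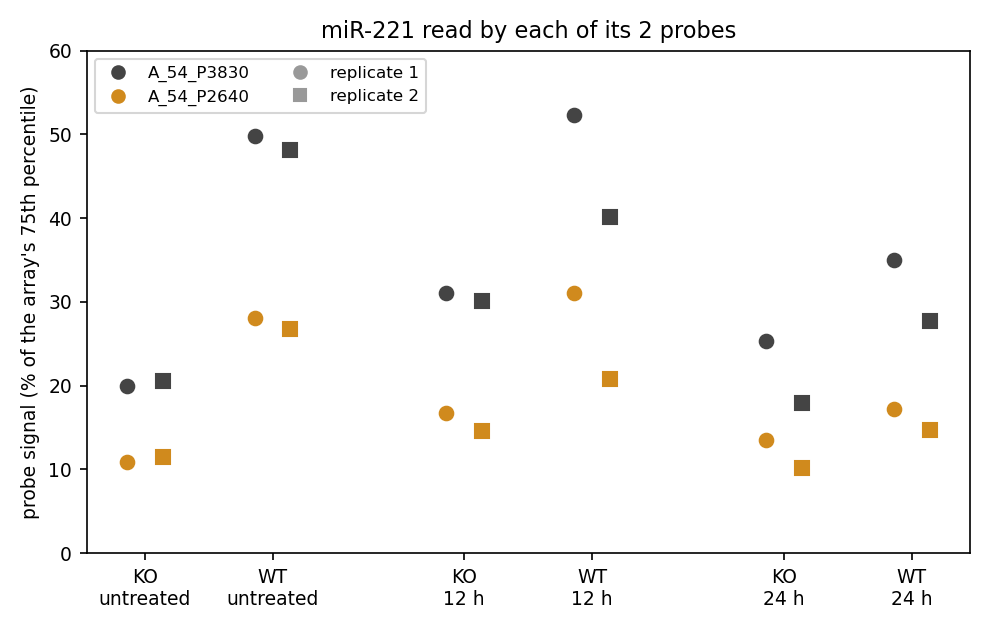
Signal of each miR-221 probe (grey A_54_P3830, orange A_54_P2640) on each array, in percent of that array's 75th percentile, with KO left of WT in each condition, circles for replicate 1 and squares for replicate 2. Each probe is lower on every KO array than on every WT array of the same condition.

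Of the 4 comparisons of tunicamycin with untreated cells, 1 was called for miR-221. In WT cells the signal after 24 h (52.2% and 42.5%) lay below both untreated arrays (77.9% and 74.99%), a 1.62-fold lower level with a log2 change of -0.70 ± 0.21 (limma adjusted p = 0.0285). In that comparison 29.5% of tested miRNAs were called lower and 13.6% higher, so a fall was common there. The separate probes gave -0.79 (0.0355) and -0.65 (0.0479). The call was lost in 6 of 11 alternatives, and without either untreated WT array (0.114 without replicate 1 and 0.0808 without replicate 2) or without replicate 2 at 24 h (0.161).

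After 12 h in WT cells the change of miR-221 was -0.10 ± 0.21 (limma adjusted p = 0.731), with an interval from -0.58 to 0.38, and the arrays overlapped with the untreated ones. The comparison had 14.2% of tested miRNAs called higher and 23.9% lower. Leaving out replicate 2 of WT at 12 h turned the value to 0.13. Changes from -0.58 to 0.38 thus remain compatible with these arrays. The interval is not adjusted for the number of miRNAs tested.

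In KO cells both arrays at 12 h (47.9% and 44.7%) lay above both untreated ones (30.9% and 32.0%) for miR-221. The log2 change was 0.56 ± 0.21 and was not called (limma adjusted p = 0.0938), while 21.6% of tested miRNAs were called higher and 3.98% lower, and the median change over all of them was 0.25. With the replicate number as a block within each slide the adjusted p was 0.0118. In these KO cultures, unlike the untreated ones, epithelial markers were detected, and their part in the change was not tested. After 24 h in KO cells the change was 0.071 ± 0.21 (adjusted p = 0.806), its sign turned with other scalings (-0.19 with the 75th percentile over all miRNAs), and 25.6% of tested miRNAs were called higher and 5.11% lower. The 12 h value also turned, to -0.33, with the deposited unscaled values.

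The difference between these responses, KO minus WT, is the comparison closest to the study's question. For miR-221 it was 0.66 ± 0.29 at 12 h (limma adjusted p = 0.141), where 22.2% of tested miRNAs were called with a higher response in KO and the median was 0.37. At 24 h it was 0.77 ± 0.29 (adjusted p = 0.101), where 19.9% were called higher and the median was 0.44. Neither passed the test, and blocking the replicate number within each slide brought them to adjusted p = 0.0321 and 0.0201. At 12 h the value turned to -0.26 with the deposited unscaled values.

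Between the times, the log2 difference of miR-221 at 24 h minus 12 h was -0.49 ± 0.21 in KO cells and -0.60 ± 0.21 in WT cells, with same-run differences of -0.30 and -0.67 in KO and of -0.68 and -0.52 in WT. All 4 same-run differences were below 0, but neither comparison was called (limma adjusted p = 0.536 and 0.404). The 176 tested miRNAs also leaned below 0 here, with medians of -0.132 in KO and -0.129 in WT. How many of them had all 4 same-run differences below 0 is not given here. With the scan run as a random block the WT difference was called (adjusted p = 0.0412) and the KO difference was not (0.0883). Without that block few miRNAs were called: 0.568% of those tested in KO and 1.14% in WT. With it 6 of the 176 tested were called in KO and 8 in WT. These comparisons lie within 1 slide.

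**Figure D3:**
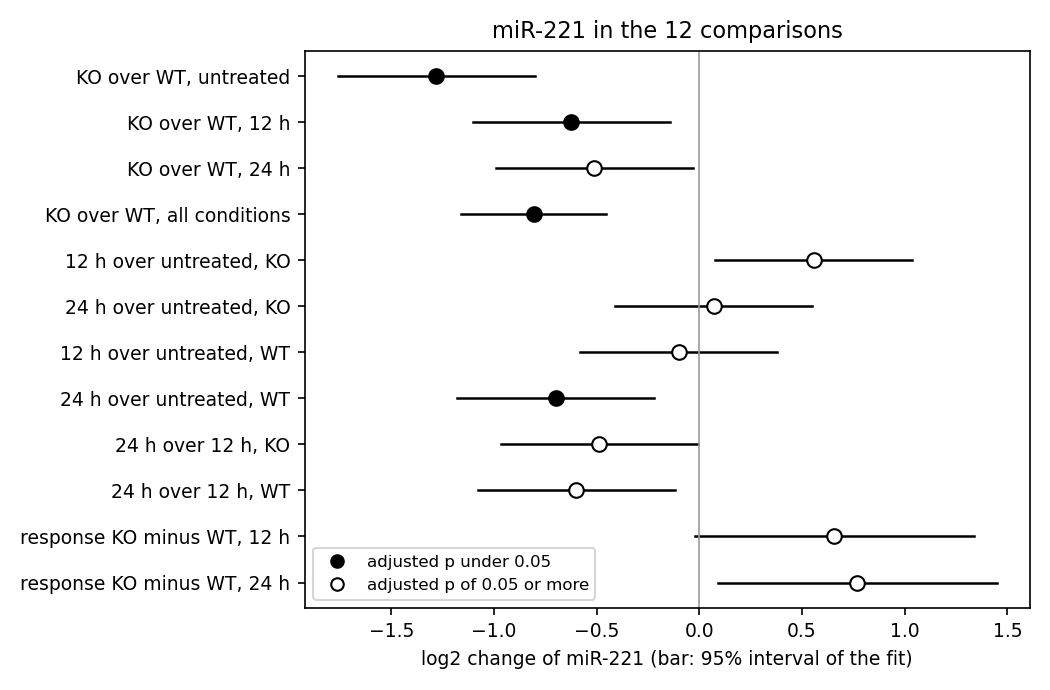
Log2 change of miR-221 in the 12 comparisons with the 95% interval of the limma fit, filled where the adjusted p was under 0.05. The KO over WT differences lie below 0, from -1.28 in untreated cells to -0.51 at 24 h, and the 24 h over untreated change in WT is the only called response, at -0.70.

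Put in order by mean level, the groups ran from untreated WT through WT at 12 h, WT at 24 h, KO at 12 h and KO at 24 h to untreated KO. By mean, all 3 WT groups stood above all 3 KO groups. Neighbours whose arrays overlapped were untreated WT and WT at 12 h, WT at 24 h and KO at 12 h, and KO at 24 h and untreated KO. WT at 12 h and at 24 h did not overlap, nor did KO at 12 h and at 24 h. Over both times and genotypes, treated against untreated arrays differed by -0.043 on the log2 scale (exact permutation within genotype, two-sided, p = 0.862). That value averages changes of opposite sign: 0.56 at 12 h and 0.071 at 24 h in KO, and -0.10 and -0.70 in WT.

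miR-222 was close to the limit of detection, and it entered the fit only because both untreated WT arrays detected it, so its differences are given as a description, with no test. It was detected on 0 of 6 KO arrays and on 4 of 6 WT arrays: both untreated ones, replicate 1 at 12 h and replicate 1 at 24 h. In untreated KO cells its signal was 3.65% and 1.12% of the 75th percentile, against 7.66% and 4.22% in untreated WT cells. At 12 h it was 1.77% and 1.13% in KO cells, against 6.12% and 3.26% in WT cells. At 24 h it was 2.55% and -0.912% in KO cells, against 3.97% and -0.166% in WT cells. Before treatment and at 12 h the KO arrays lay below the WT arrays, and at 24 h they overlapped.

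Values under a floor of 1.91% were set to it before log2 was taken, which applied to 5 arrays for miR-222: untreated KO replicate 2, both KO arrays at 12 h, and replicate 2 of KO and of WT at 24 h. The detection calls depend on small differences. Before scaling, the probes of miR-222 summed to 22.7 intensity units on replicate 1 of untreated KO, where it was not detected, and also to 22.7 on replicate 2 of untreated WT, where it was. Of the spots of its brighter probe, A_54_P2644, 0 stood well above background on any KO array, against 6 of 10 on that WT array and 10 of 10 on the other untreated one. The other probe, A_54_P2643, was under the floor on 11 of 12 arrays.

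On the array means of the setting used here, a bound put miR-222 in untreated KO cells 2.15-fold below WT cells. Mean log2 values were -5.24 ± 0.66 in KO, where it was not well above background, and -4.14 ± 0.61 in WT (SD, n = 2 each). This bound equals the fitted log2 difference of -1.11, so in untreated cells it is no lower limit on the fold. With normexp that difference was -0.23. The brighter group, untreated WT, is also the one through which miR-222 entered the fit. The bound sets the mean of the brighter group against, on each dim array, the highest of the floor, the lowest detected signal and the miRNA's own signal. At 12 h the bound put KO cells 1.23-fold below WT cells. The mean log2 was -5.71 in KO, both arrays being at the floor, and -4.48 ± 0.64 in WT, of which 1 array of 2 detected it. With normexp the 12 h log2 difference turned to 0.30, higher in KO. Neither bound takes account of the spread between arrays. At 24 h no fold can be given, since the bound fell under 1.

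Over all conditions the fitted log2 difference of miR-222, KO minus WT, was -0.88, and with normexp background correction it turned to 0.11. KO was lower in 5 of 6 same-run pairs, and the other pair was equal at the floor. With 1 array left out the value nearest 0 was -0.73, without replicate 1 of WT at 12 h.

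In WT cells the fitted log2 change of miR-222 was -0.35 after 12 h and -1.04 after 24 h, with 1 array of 2 detecting it at each time against both untreated ones, the group through which it entered the fit. With normexp the 24 h change turned to 0.086. In KO cells it was not detected before or after treatment, so no change is given.

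Whether the 2 miRNAs differ in their KO to WT contrast could not be measured, because miR-222 was detected on 0 of 6 KO arrays and its values there are background or the floor. Across the 6 group means miR-221 and miR-222 had a Pearson correlation of 0.82. The points share arrays and scaling, and the 3 KO means of miR-222 rest on arrays that did not detect it.

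By the same measure, the tested miRNAs most like miR-221 were miR-362-5p (r = 0.94), miR-125b-5p (0.85), miR-29a (0.82), miR-466a-3p (0.82) and miR-224 (0.80), out of 174 candidates over 6 group means. Those most like miR-222 were miR-125b-5p (0.97), miR-129-5p (0.90), miR-30a* (0.79), miR-30a (0.79) and miR-541 (0.79). miR-125b-5p stood in both lists and was detected on all 12 arrays. Several of the others were dim, with miR-362-5p detected on 8 arrays, miR-466a-3p and miR-129-5p on 7 and miR-224 on 5, so part of their pattern lies at the floor.

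**Figure D4:**
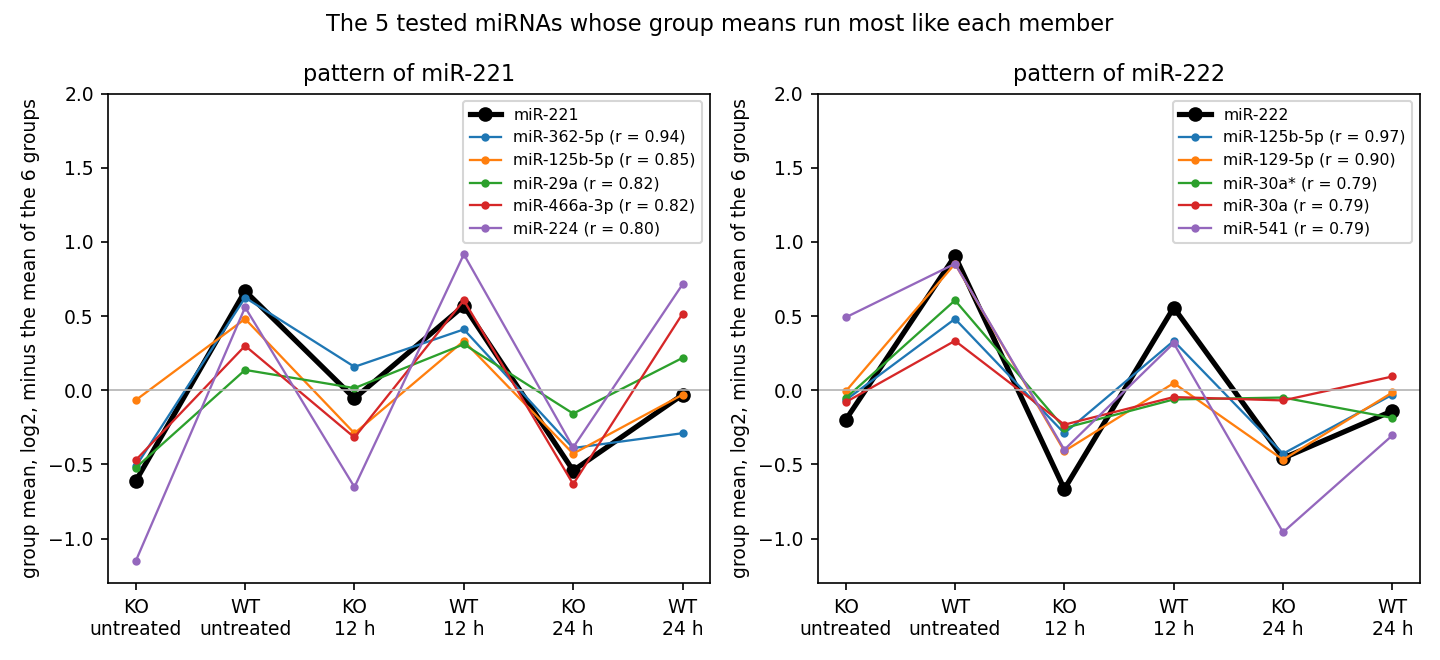
Group means (log2) of miR-221 (left) and miR-222 (right) in black and of the 5 tested miRNAs whose 6 group means correlate best with each, each minus its own mean over the 6 groups, with KO left of WT in each condition. The highest correlations were 0.94 (miR-362-5p, for miR-221) and 0.97 (miR-125b-5p, for miR-222).

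In the setting used here, the calls of other miRNAs reported to repress p27 were higher in KO than in WT cells, apart from 1 lower call at the floor. Of 7 listed, 6 were tested. In untreated KO against WT cells 1 was called higher and 1 lower, with a median log2 difference of 0.43, against -0.027 over all tested miRNAs. Over all tested miRNAs 1.70% were called higher there and 9.66% lower. At 12 h 3 were called higher in KO and 0 lower, where 29.5% of all tested were called higher and 8.52% lower, with a list median of 0.62 against 0.23. At 24 h the counts were again 3 and 0, beside 27.3% and 7.39% of all tested, with a list median of 0.62 against 0.25. miR-24, the most abundant, was higher in KO by 1.04 at 12 h and 1.07 at 24 h, where miR-221 had differences of -0.62 and -0.51. miR-148a was called higher in KO in each condition (1.12, 1.12 and 0.70) and miR-152 at 12 h and 24 h (1.78 and 1.91), but under the scanner software's own total the untreated and 24 h differences of miR-148a changed sign, as did the 12 h difference of miR-152. miR-196a, the lower call in untreated cells, had a fitted difference of -1.79 there, but both KO arrays were undetected and at the floor.

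Of 6 listed repressors of p21, the related inhibitor Cdkn1a, 4 were tested. In untreated cells 3 were called lower in KO than in WT, as miR-221 was, beside 9.66% of all tested miRNAs, with a list median of -1.05 against -0.027. They included miR-20a at -1.03 and miR-106b at -0.74, while miR-20b, at -1.15, changed sign under the scanner software's own total. At 12 h and 24 h 0 of 4 were called in either direction between genotypes. All 4 were called higher after 12 h of tunicamycin in KO cells (median 2.40, against 0.25 over all tested, of which 21.6% were called higher). All 4 were also called higher in WT cells (median 1.48, against -0.053, with 14.2% of all tested called higher), and miR-221 was called in neither. miR-20b turned lower in KO with the deposited unscaled values.

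miRNAs reported to fall in endoplasmic reticulum stress, a list that miR-221 and miR-222 would join by their reported behaviour, were called in both directions in WT cells and only higher in KO cells in the setting used here. Of 7 listed, 6 were tested. After 12 h 4 were called higher in KO and 0 lower, where 21.6% of all tested were called higher and 3.98% lower. One of them, miR-96, was not detected on either untreated KO array, so its rise in KO starts from the floor. The others were miR-25, miR-93 and miR-106b, and whether they change independently of each other was not tested. In WT 4 were called higher at 12 h and 1, miR-34a, lower by -0.86, where 14.2% of all tested were called higher and 23.9% lower. After 24 h the counts were 4 and 0 in KO, beside 25.6% and 5.11% of all tested, and 3 and 1 in WT, beside 13.6% and 29.5%. The list's medians were 1.60 at 12 h and 1.26 at 24 h in KO, against 0.25 and 0.15 over all tested, and 1.00 and 0.75 in WT, against -0.053 and -0.027. miR-106b and miR-93 belong to both this list and the preceding one. Under the scanner software's own total the changes of miR-25 and miR-96 in WT cells turned lower at both times, which leaves 2 of the 4 higher calls at 12 h and 1 of the 3 at 24 h with their direction kept. miR-221 at 24 h in WT, the called fall of this cluster, ran opposite to the list's median of 0.75.

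Of 4 miRNAs reported to be induced through AP-1 or NF-kappa-B, as the cluster has been in human tumour cells, 2 were tested. miR-21 was called in no comparison between genotypes, with differences of -0.25, 0.21 and 0.028 untreated, at 12 h and at 24 h. miR-155 was called higher in KO in each condition (0.83, 1.37 and 1.56), opposite to miR-221, and its 12 h value turned to -0.29 with the deposited unscaled values.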

How the data were processed

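Mature miRNAs were measured on 12 one-colour Agilent arrays, labelled from 100 ng of RNA per the labels. The deposited scanner tables hold spot intensity from Agilent Feature Extraction 10.7.1.1, as the file headers and the submitters' processing notes name it. The authors also deposited log2 values, which match the scanner software's total signal of each miRNA on the log2 scale (largest gap 1.18e-06) and are unscaled, with column medians of 5.75 to 6.87. The processed intensity was averaged over the spots of each probe, leaving out outlier spots, and summed over the probes of each miRNA. Scaling divided these sums by the 75th percentile of the 93 miRNAs that every array detected, and a floor of 0.0191 was applied before log2 (-5.71).

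limma 3.58.1 (R 4.3.3) was run on the 176 mouse miRNAs that both arrays of any group detected, with 6 residual and 1.65 prior degrees of freedom, in 12 comparisons, with Benjamini-Hochberg adjustment over the 176 in each. It was tested on simulated data, and the outcome is not given here. Alternatives were 2 other array scalings, the software's total, the deposited values, normexp with an offset of 50, the detection filter, blocks and left-out arrays. The precision is limited by 2 arrays per group. The members and lists were chosen with earlier results of these data known. Named miRNAs are the members, the 5 most like each, and up to 4 of the most abundant tested members of each list, beside any whose sign turned.

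Replicate numbers mark the scan run within a slide, per the labels' raw data names and the file headers. Deviations of same-numbered arrays correlated at 0.478 on the untreated slide and at 0.761 to 0.906 on the treated one, against -0.382 to -0.0533 between slides, so the block was also fitted within each slide, an alternative added after the data were seen.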

Additional observations from a re-analysis of the deposited data

How the results depend on the processing

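No test or call of miR-222 given here is support for a difference, since it entered the fit only through untreated WT (over all conditions KO minus WT was -0.88, adjusted p = 0.0319 with limma). Across the alternatives run, the lower level of miR-221 in KO kept its direction in each of the 4 KO to WT comparisons, and its threshold moved with the scaling. With the 75th percentile over all miRNAs the log2 difference was -1.43 untreated and -1.04 at 12 h, and the WT change at 24 h was -0.73, all 3 below the call. Quantile normalization likewise lost these 3 calls (-1.24, -0.77 and -0.78), as did the scanner software's total (-1.33, -0.61 and -0.98) and the deposited unscaled values (-1.10, -1.35 and -1.19). The deposited values also lost the difference over all conditions (-1.12). Normexp, on spots without a marked local background, lost the 12 h difference (-0.35) and the 24 h change in WT (-0.54). The 24 h change of miR-221 in KO turned to -0.19, -0.13, -0.21 and -0.99 with the first 4 of these settings. The deposited values turned the 12 h change in KO to -0.33, the response difference at 12 h to -0.26 and the 12 h change of miR-222 in WT to 0.35. With normexp miR-222 reversed in 5 comparisons: 0.30 at 12 h, 0.26 at 24 h and 0.11 over all conditions for KO minus WT, 0.086 at 24 h against untreated in WT, and 0.12 at 24 h against 12 h in WT. Its permutation values were 0.11 for genotype and 0.28 for treatment, that of miR-221 for treatment 0.036, and those of miR-221 minus miR-222 -0.57 and -0.24. In the setting used for the results that last difference gave 0.077 for genotype and 0.49 for treatment. No reading is drawn from it, since no KO array detected miR-222. With the software's total, miR-222 over all conditions was -1.02 and not called (exact permutation p = 0.0833). With no detection filter, more miRNAs are tested and the calls of miR-221 at 12 h (-0.62) and at 24 h in WT (-0.70) and of miR-222 over all conditions (-0.88) were lost at unchanged values. Otherwise the cause was not tested. The median of all tested miRNAs moved with the scaling by -0.85 to 0.37 on the log2 scale. Relative to it, miR-221 stayed lower in untreated KO cells, by -1.297 to -0.847.

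Blocks left values as they were and added calls. With the replicate block these were miR-221 at 12 h in KO (0.56), KO to WT at 24 h (-0.51) and the response difference at 24 h (0.77), and miR-222 at 24 h in WT (-1.04) and KO to WT untreated (-1.11) and at 12 h (-1.22). The block within slide added these and the response difference of miR-221 at 12 h (0.66). The scan run as a random block added both response differences, KO to WT of miR-221 at 24 h and of miR-222 untreated and at 12 h, and miR-221 at 24 h against 12 h in WT (-0.60). The replicate block changed no other call of either miRNA. Without the 4 arrays of the second treated run, chosen after the data were seen, miR-221 at 12 h was 0.61 in KO (called) and 0.13 in WT, the response difference at 24 h was 0.85 (called), and treated minus untreated was 0.12. miR-222 at 12 h in WT was 0.11, and over all conditions -1.13, not called. The exact tests gave -0.84 for miR-221 and -1.14 for miR-222, each at p = 0.0833. The exact permutation within runs gave miR-222 -0.88 at p = 0.0625. None of these calls and p-values of miR-222 is support for a difference. It entered the fit only through untreated WT, and no KO array detected it.

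Leaving out 1 array at a time, where a lone array is assumed to vary like the other groups, miR-221 KO minus WT ran from -1.31 to -1.25 untreated, -0.85 to -0.40 at 12 h, -0.74 to -0.28 at 24 h and -0.90 to -0.74 over all conditions. Its tunicamycin changes ran from 0.51 to 0.61 (12 h) and -0.16 to 0.30 (24 h) in KO, and from -0.32 to 0.13 and -0.85 to -0.55 in WT. Its response differences ran from 0.43 to 0.88 and from 0.54 to 1.00. At 24 h minus 12 h the ranges were -0.72 to -0.25 in KO and -0.83 to -0.37 in WT. For miR-222, KO minus WT ran from -1.57 to -0.64 untreated, -1.68 to -0.77 at 12 h, -0.85 to 0.21 at 24 h and -1.08 to -0.73 over all conditions, and the WT changes from -0.80 to 0.11 at 12 h, -1.57 to -0.52 at 24 h and -1.22 to -0.17 between times. Permutation values ran from -0.88 to -0.73 and -1.06 to -0.71 for genotype (miR-221, miR-222), and from -0.13 to 0.037 and -0.76 to -0.30 for treatment. For the difference of the 2 they ran from -0.087 to 0.24 and 0.24 to 0.73. No reading is drawn from that difference either.

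The number of miRNAs called for KO against WT moved by over 1.5 times: 20 untreated (0 to 39 over the alternatives), 67 at 12 h (0 to 91), 61 at 24 h (0 to 87) and 76 over all conditions (1 to 86). For tunicamycin it was 45 and 54 in KO (0 to 79 and 0 to 88) and 67 and 76 in WT (0 to 102 and 0 to 115), and for the response differences 43 and 36 (0 to 70 and 0 to 65). Normexp on all spots, as planned, was not used: the mean spot signal it calls for was not used here and the median stood in for it, and 17 spots with a marked background raised the median corrected spot of WT at 12 h replicate 1 to 581, against 58.8 to 65.8 elsewhere. Signal over background limits miR-222, detected on 4 of 12 arrays.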
